A study of Homo sapiens with 12 samples.

Results

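The transcriptional response to decitabine plus vorinostat that is common to a pair of HCC827 lung adenocarcinoma lines was examined over all 12 arrays of the study, as the effect of treatment with cell line as a covariate. Of the 12 arrays, 6 were treated and 6 were controls, so that every sample of the study is used. Both lines have the same EGFR deletion, per the labels, and in HCC827-Del-TM a substitution in EGFR is added to it. Cells of each line were kept for 72 h in DMSO (control) or in 2.5 µM decitabine together with 1 µM vorinostat, which gives 4 groups of 3 biological replicates. All groups share the HCC827 background, no group received a single drug, and the sources used here do not give how HCC827-Del-TM was derived. Genes that changed in the same direction and by a similar size in both lines are the subject below.

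Decitabine is a cytidine analogue that is built into replicating DNA, where it traps DNA methyltransferases, so that methylation is lost as cells divide and genes with methylated promoters can be transcribed again. Vorinostat inhibits histone deacetylases, which remove acetyl groups from histones and other proteins, and cells given such inhibitors are known for higher CDKN1A, the gene of the cell cycle inhibitor p21. HCC827 cells are epithelial and depend on signals from mutant EGFR, a receptor tyrosine kinase.

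RNA was measured on 1-colour Illumina bead arrays. Values below are background-corrected, quantile-normalised log2 intensities, except where deposited signals are named. Between 16251 and 19671 of 47323 probes were detected per array at a detection p under 0.01. Replicates correlated across genes at r = 0.995 to 0.996, against 0.931 to 0.972 between groups. Precision is limited by the number of arrays, and the median standard error (SE) of the treatment effect was 0.0937 on the log2 scale. The epithelial markers EPCAM, CDH1, KRT7, KRT8, KRT18 and KRT19 and the lung lineage factor NKX2-1 were detected on all 12 arrays, whereas the surfactant gene SFTPB was detected on 6. No chip number was used here.

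The first question was how many genes responded in both lines. Of 11808 genes tested, 5179 (43.9%) passed limma's test for treatment over both lines at a Benjamini-Hochberg adjusted p under 0.05, with 2479 (21%) higher and 2700 (22.9%) lower. Such a call can come from a single line: 2641 of the 5179 genes were called in 1 line only, among them MT1E, a metallothionein gene, with a log2 fold change of 1.47 over both lines but 2.98 in HCC827-Del and -0.04 in HCC827-Del-TM. In both lines and in the same direction, 2431 genes (20.6%) were called, 1209 higher and 1222 lower. They made up 40.1% of the genes called in HCC827-Del (51.3% of genes tested) and 44.9% of those called in HCC827-Del-TM (45.9% of genes tested), and a further 770 genes (6.52%) were called in opposite directions. Across genes the log2 fold changes of the 2 lines correlated at r = 0.43, a description over genes that are not independent.

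The rule for a shared response of similar size required a call over both lines and in each line in the same direction. The probe also had to be detected on at least 1 array of each of the 4 groups. In addition, the 95% interval of the difference between the line effects had to stay within 1.5-fold, that is 0.585 on the log2 scale. That rule left 1372 genes (11.6%), of which 604 (5.12%) were higher and 768 (6.5%) lower after treatment. The share of higher genes among them was 44% and became 55.8% when the arrays were normalised by cyclic loess. Most of these changes were small, with a median absolute log2 fold change of 0.438, and 45 genes rose and 17 fell by at least 1. Over all genes tested, 339 (2.87%) rose and 85 (0.72%) fell by at least 1 in the test over both lines. The 6 treated arrays lay wholly above or wholly below the 6 control arrays for 758 of the 1372 genes and for 14.1% of all genes tested. Within each line, treated and control arrays did not overlap, in the same direction, for 1310 of the 1372 genes (95.5%) and for 25.1% of all genes tested. These counts describe genes that the rule chose for agreement between the lines. Just inside the limit lay KANK1 (-0.71 in HCC827-Del and -0.44 in HCC827-Del-TM) and ARID1A (-0.63 and -0.28), and just outside it FMO4 (0.43 and 0.60) and ALDH1A3 (-1.12 and -1.44).

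**Figure D1:**
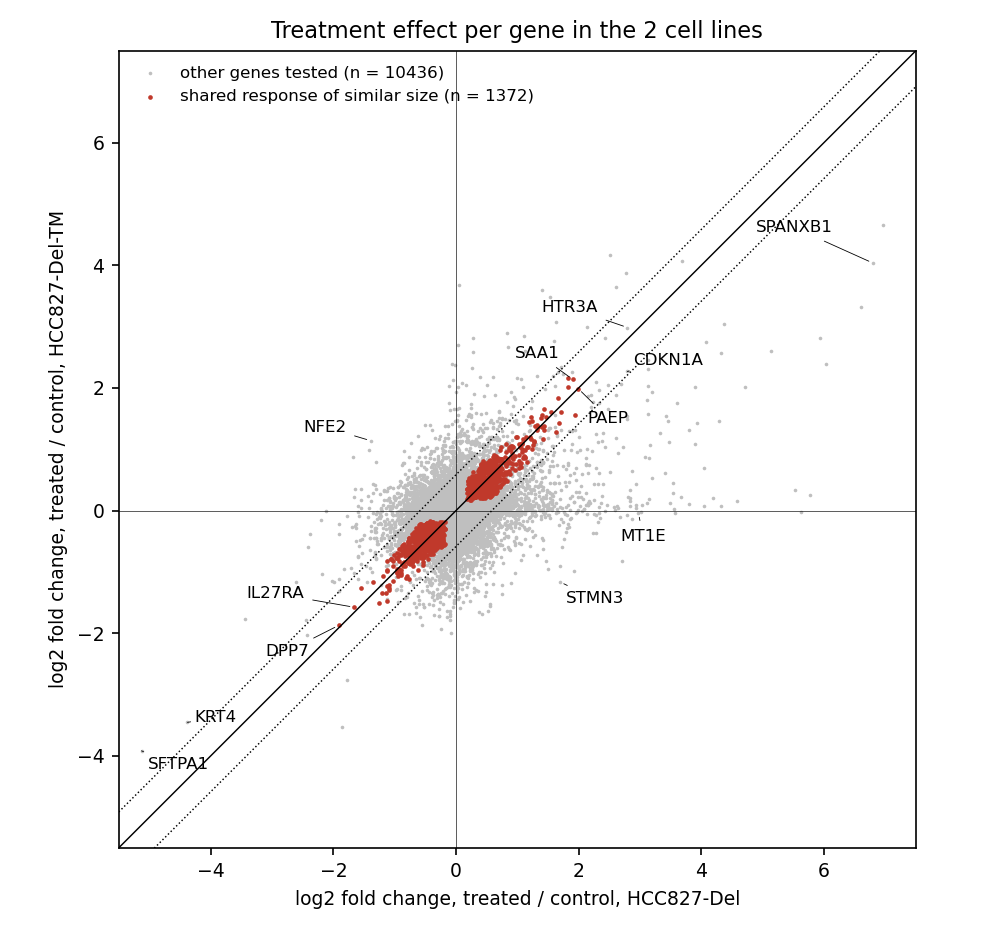
Log2 fold change of treated over control cells in HCC827-Del (horizontal axis) and HCC827-Del-TM (vertical axis) for each of 11808 genes. The 1372 genes of the shared response of similar size (red) lie along the line of equal effects, between the dotted lines that mark a 1.5-fold difference, and reach from -1.89 to 2.02 over both lines, while genes such as SPANXB1 and MT1E lie far below that line.

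Among genes of similar size detected on all 12 arrays, SAA1, ANGPTL4 and PAEP had the highest effects. SAA1, an acute-phase serum amyloid, gave log2 intensities of 5.24, 5.23 and 5.47 in HCC827-Del control cells, 7.16, 7.30 and 7.20 after treatment, 9.51, 9.50 and 9.46 in HCC827-Del-TM control cells and 11.54, 11.67 and 11.68 after treatment. The groups did not overlap within either line, although the control level of HCC827-Del-TM was above the treated level of HCC827-Del. The treatment effect of SAA1 was 2.02 (SE 0.0711, adjusted p = 1.28e-09), a 4.06-fold rise. ANGPTL4, a secreted inhibitor of lipoprotein lipase, rose from 6.68, 6.75 and 6.84 to 8.66, 8.59 and 8.52 in HCC827-Del and from 10.03, 9.88 and 9.99 to 12.11, 12.09 and 12.18 in HCC827-Del-TM, by 2.00 over both lines (SE 0.074, adjusted p = 1.69e-09). PAEP, which encodes the secreted lipocalin glycodelin, gave 6.39, 6.58 and 6.44 in HCC827-Del control cells against 8.31, 8.48 and 8.60 after treatment, and 6.42, 6.77 and 6.72 in HCC827-Del-TM control cells against 8.51, 8.69 and 8.66 after treatment. The PAEP rise was thus 2.00 in HCC827-Del and 1.99 in HCC827-Del-TM, from like control levels, and the 95% interval of the difference ran from -0.33 to 0.31.

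Other probes of these genes did not always move in both lines. Another kept probe of SAA1 gave -0.07 in HCC827-Del and 1.51 in HCC827-Del-TM, and the other kept probes of ANGPTL4 gave 0.06 and 0.08 in HCC827-Del but 1.76 and 2.03 in HCC827-Del-TM. The other kept probe of PAEP gave 1.57 and 1.73. Throughout, the value of a gene is that of its brightest kept probe.

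LYPD5, a gene of the Ly6 and uPAR family of surface proteins, lay at 5.80, 5.85 and 5.90 in HCC827-Del control cells and 7.61, 7.75 and 7.69 after treatment, and at 5.93, 5.92 and 5.62 in HCC827-Del-TM control cells and 7.94, 7.77 and 7.82 after treatment. It rose by 1.92 (SE 0.0733), and all 6 treated arrays lay above all 6 controls. CLDN1, a tight junction claudin, rose by 1.75 (SE 0.0654), from 8.34, 8.36 and 8.52 to 10.12, 10.04 and 10.07 in HCC827-Del and from 8.40, 8.52 and 8.49 to 10.19, 10.40 and 10.33 in HCC827-Del-TM. ITGA5, the alpha subunit of the fibronectin receptor, rose by 1.66 (SE 0.0657), and SERPINA1, the secreted inhibitor alpha-1 antitrypsin, by 1.75 (SE 0.0734). SERPINA1 was nevertheless past the test for a difference between lines, as were 42.6% of all genes tested, at 1.93 in HCC827-Del and 1.57 in HCC827-Del-TM (adjusted p = 0.00572). HSPB8, a small heat shock protein that works with BAG3 in selective autophagy, rose by 1.56. ATF3, a stress-induced transcription factor, rose by 1.55 and ANKRD22, an ankyrin repeat gene, was 2.84-fold higher.

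**Figure D2:**
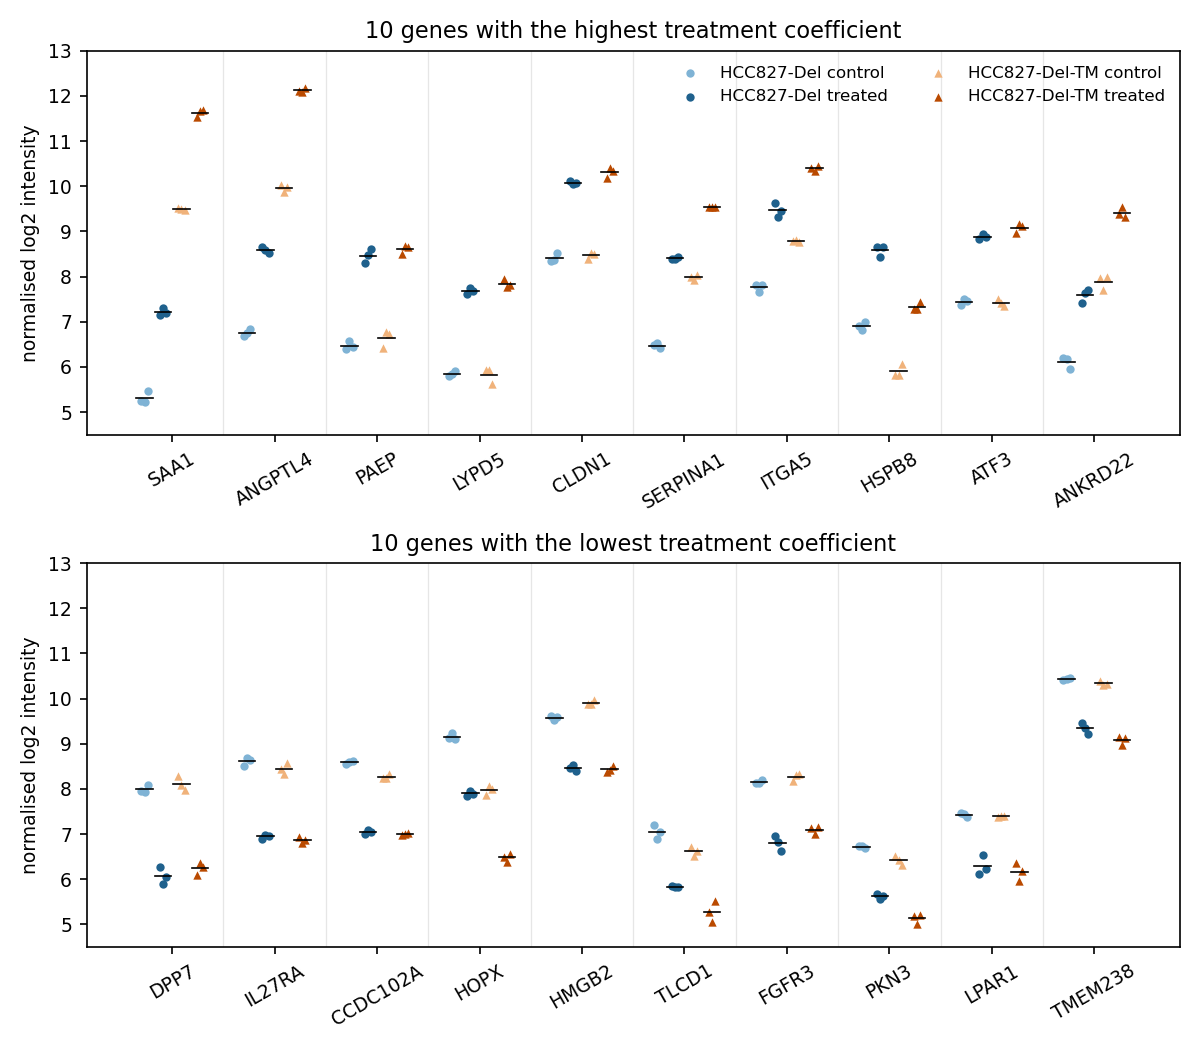
Normalised log2 intensity on each of the 12 arrays (points) with the mean of each group of 3 (bars) for the 10 genes with the highest and the 10 with the lowest treatment effect among genes of the shared response of similar size. Circles are HCC827-Del and triangles HCC827-Del-TM, pale for control and dark for treated cells, and in each of the 20 genes treated and control arrays of a line do not overlap.

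Among genes that fell alike, DPP7, a lysosomal dipeptidyl peptidase, had the lowest effect. It lay at 7.96, 7.93 and 8.08 in HCC827-Del control cells and 6.28, 5.89 and 6.05 after treatment, and at 8.28, 8.09 and 7.99 in HCC827-Del-TM control cells and 6.10, 6.37 and 6.27 after treatment. The fall of 1.89 (log2 fold change -1.89, SE 0.0825, adjusted p = 4.16e-09) is 3.72-fold, and its other 3 kept probes gave -1.04, -1.39 and -1.61. IL27RA, a subunit of the interleukin-27 receptor, went from 8.52, 8.67 and 8.64 to 6.89, 6.98 and 6.96 in HCC827-Del and from 8.44, 8.33 and 8.56 to 6.94, 6.80 and 6.87 in HCC827-Del-TM, an effect of -1.62 (SE 0.0625, adjusted p = 1.69e-09). Both genes had like levels in the 2 lines before and after treatment. CCDC102A, a gene for a coiled-coil protein, had an effect of -1.41, with -1.55 in HCC827-Del and -1.26 in HCC827-Del-TM. HMGB2, a DNA-bending chromatin protein that is abundant in dividing cells, had -1.29. The differences between lines passed the test for CCDC102A (adjusted p = 0.0223) and HMGB2 (adjusted p = 0.0102), though their intervals stayed within 1.5-fold.

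Further genes of the 10 lowest followed. FGFR3, a fibroblast growth factor receptor, gave 8.13, 8.13 and 8.19 in HCC827-Del control cells against 6.96, 6.82 and 6.63 after treatment, and 8.17, 8.30 and 8.32 in HCC827-Del-TM control cells against 7.14, 6.99 and 7.16 after treatment. Its effect was -1.26 (SE 0.0727, adjusted p = 5.2e-08), but its other kept probe gave -0.22 (adjusted p = 0.249). LPAR1, a lysophosphatidic acid receptor, had an effect of -1.18, TLCD1, a membrane lipid regulator, -1.27, and TMEM238, a transmembrane protein gene, -1.18. HOPX, a homeodomain protein of alveolar type I cells, had -1.38 (SE 0.0706) with its brightest probe and -0.55 with the other.

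The region around the transcription start of some of these genes is shown because decitabine acts on methylated CpG, the dinucleotide CG. Printed are 300 bases (250 before and 50 after the start, on the strand of the gene) from RefSeq, build GRCh38.p14, for the 2 highest and the 2 lowest genes above that have a single start in the table, with CG in capitals. ANGPTL4 (chr19:8363905-8364204, + strand) holds 20 CG, PAEP (chr9:135561506-135561805, + strand) 12, DPP7 (chr9:137114684-137114983, - strand) 41 and IL27RA (chr19:14031512-14031811, + strand) 25.
ANGPTL4: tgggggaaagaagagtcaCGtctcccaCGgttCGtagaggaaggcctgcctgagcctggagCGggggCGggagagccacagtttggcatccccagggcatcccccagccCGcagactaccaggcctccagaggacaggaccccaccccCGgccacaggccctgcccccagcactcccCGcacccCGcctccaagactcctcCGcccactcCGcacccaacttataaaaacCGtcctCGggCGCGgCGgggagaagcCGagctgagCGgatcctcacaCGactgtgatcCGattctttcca
PAEP: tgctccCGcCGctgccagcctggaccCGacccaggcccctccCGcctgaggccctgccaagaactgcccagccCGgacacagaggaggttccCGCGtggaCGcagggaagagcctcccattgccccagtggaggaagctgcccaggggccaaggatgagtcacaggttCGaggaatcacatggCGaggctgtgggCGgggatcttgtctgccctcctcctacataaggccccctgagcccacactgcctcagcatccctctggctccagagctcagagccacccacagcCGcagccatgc
DPP7: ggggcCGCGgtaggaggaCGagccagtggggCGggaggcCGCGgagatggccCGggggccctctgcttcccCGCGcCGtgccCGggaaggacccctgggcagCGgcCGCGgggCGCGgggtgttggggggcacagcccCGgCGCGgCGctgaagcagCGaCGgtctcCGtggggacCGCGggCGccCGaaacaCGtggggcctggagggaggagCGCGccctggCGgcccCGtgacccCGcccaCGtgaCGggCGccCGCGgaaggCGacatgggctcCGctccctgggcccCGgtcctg
IL27RA: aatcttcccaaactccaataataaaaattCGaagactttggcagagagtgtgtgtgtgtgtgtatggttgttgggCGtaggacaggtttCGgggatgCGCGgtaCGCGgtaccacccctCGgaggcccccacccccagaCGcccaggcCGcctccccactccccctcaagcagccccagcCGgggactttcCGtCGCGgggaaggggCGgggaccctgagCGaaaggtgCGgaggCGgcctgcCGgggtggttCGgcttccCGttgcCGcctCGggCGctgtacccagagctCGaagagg
The upper pair rose and the lower pair fell, and no methylation was measured. A start region was found for 80.3% of genes tested, and the count of CG was averaged where a gene had several starts, a definition chosen after coverage had been seen. The median was 25 CG over all genes tested, 23.5 over 499 genes that rose with similar size and 28 over 628 that fell. Fewer than 10 CG were found in 10.8% of the 499 genes and in 3.98% of the 628. The share was 10.9% of all genes tested but 7.04% of those detected on all 12 arrays, whose median was 26 CG. Of the 1372 genes of similar size, 1318 were detected on all 12 arrays. Among genes that changed by at least 1, 10 of the 36 that rose (27.8%) and 2 of the 14 that fell had fewer than 10. The letters TATAAA, or TTTATA on the other strand, were found in 65 of the 499 genes that rose, 47 of the 628 that fell (7.48%) and 9.04% of all genes tested. Of genes detected on all 12 arrays, 8.22% held them. Among genes that changed by at least 1 the shares were 19.4% of those that rose and 21.4% of those that fell, and of the printed regions ANGPTL4 alone held these letters.

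Some genes were not detected under one condition in both lines. No probe was detected on any of the 6 control arrays and the tested probe was detected on all 6 treated arrays for 47 genes, of which 46 (0.39%) were called in both lines. The reverse held for 6 genes (0.0508%), all called in both lines. Folds of such genes are lower bounds, the bright group over the dimmest detected signal or the gene's own signal in the other group, whichever was higher. HTR3A, a subunit of the ligand-gated serotonin receptor, lay between 4.26 and 4.74 on the 6 control arrays, all undetected, and between 7.29 and 7.55 on the 6 treated arrays. That is at least 5.72-fold higher in HCC827-Del and at least 5.26-fold in HCC827-Del-TM, and the difference between lines did not pass the test (adjusted p = 0.329). ALOX5AP, which presents arachidonic acid to 5-lipoxygenase, was at least 3.57-fold and 2.76-fold higher. SBSN, a suprabasal keratinocyte gene, was at least 26.3-fold higher in HCC827-Del and 4.02-fold in HCC827-Del-TM, and SPANXA1 and SPANXD, X-linked sperm protein genes, reached bounds of 50.2-fold and 50.4-fold in HCC827-Del and of 4.29-fold and 3.22-fold in HCC827-Del-TM. These 3 genes rose in both lines but by unequal size. Probes of families with near-identical copies (SPANX, HLA, metallothionein, SAA and HSPA1 genes) can bind more than 1 member.

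In the other direction, the surfactant protein genes SFTPA1 and SFTPB, products of alveolar type II cells, became undetectable. SFTPA1 went from 9.67, 9.32 and 9.49 to between 4.32 and 4.44 in HCC827-Del and from 8.34, 8.30 and 8.61 to between 4.38 and 4.69 in HCC827-Del-TM, at least 26.1-fold and 10.4-fold lower. SFTPB was at least 3.12-fold lower in HCC827-Del and 8.16-fold in HCC827-Del-TM. UBA7, the activating enzyme of the ubiquitin-like protein ISG15, was at least 3.21-fold and 1.99-fold lower. RFTN2, a raftlin of lipid rafts, was at least 1.91-fold and 1.49-fold lower, and HPDL, a mitochondrial dioxygenase gene, 1.86-fold and 1.45-fold.

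Genes tied to the drugs and to the lines were read next. CDKN1A rose from 7.79, 7.62 and 7.74 to 10.58, 10.40 and 10.55 in HCC827-Del and from 8.68, 8.81 and 8.61 to 10.98, 10.96 and 10.96 in HCC827-Del-TM. Its effect over both lines was 2.53 (SE 0.0955, adjusted p = 1.69e-09), and the rise was larger in HCC827-Del, 2.80 against 2.27 (adjusted p = 0.00186), so that it fell outside the limit of similar size. EGFR stayed between 12.65 and 12.82 on all 12 arrays, with an effect of 0.04 (SE 0.0543, adjusted p = 0.568). Another EGFR probe gave 0.68 in HCC827-Del and 0.12 in HCC827-Del-TM. HDAC1, a target of vorinostat, had an effect of 0.17 over both lines (adjusted p = 0.0267), but was not called in HCC827-Del (0.13, adjusted p = 0.147). The call over both lines was lost with median scaling (adjusted p = 0.129). It was also lost without replicate 1 of treated HCC827-Del (adjusted p = 0.0587), replicate 1 of control HCC827-Del-TM (adjusted p = 0.0569) or replicate 2 of treated HCC827-Del-TM (adjusted p = 0.0616). HDAC2 had 0.03 (adjusted p = 0.767). DNMT1, the maintenance methyltransferase, fell over both lines (-0.47, adjusted p = 0.01), with -0.06 in HCC827-Del and -0.88 in HCC827-Del-TM. Its partner UHRF1 went in opposite directions, 0.55 and -1.55, and DNMT3B, a de novo methyltransferase, gave 0.73 and 0.08. CEBPA, a transcription factor gene of lung and myeloid cells, was higher in HCC827-Del (0.38) and undetected on the treated arrays of HCC827-Del-TM, at least 1.21-fold lower. Of 12 DNA methylation genes tested, none was called in both lines in the same direction, 1 was higher and 5 lower over both lines at an adjusted p under 0.05. Over all genes tested, 21% were higher and 22.9% lower over both lines, and 10.2% rose and 10.3% fell in both lines. Opposite directions were called for 2 of the 12, against 6.52% of all genes tested. Of the 11 detected on all 12 arrays, 1 was higher and 4 lower over both lines. TET1, TET2 and DNMT3A did not pass the detection filter and were not tested.

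Lung lineage genes were mostly lower in both lines. Of 17 tested, 10 fell and 2 rose in both lines (10.3% and 10.2% of all genes tested were lower and higher), and 3 and 1 did so by similar size. A further 2 of the 17 were called in opposite directions, against 6.52% of all genes tested. Over the 12 members detected on all 12 arrays, 7 fell and 1 rose in both lines. The median effect of these 12 over both lines was -0.717, against -0.0491 over all genes detected on all 12 arrays. HOPX, LPCAT1, which makes surfactant phosphatidylcholine (-0.74), and NAPSA, the protease that processes surfactant protein B (-0.35), were the similar ones that fell. The lineage factor NKX2-1 gave -1.43 in HCC827-Del but 0.04 in HCC827-Del-TM. FOXA1, a pioneer factor of endoderm, fell by more in HCC827-Del (-1.55 against -0.87), while MUC1, a membrane mucin (-0.95 against -1.49), and SPDEF, a secretory cell factor (-1.78 against -2.77), fell by more in HCC827-Del-TM. FOXA2, a related endoderm factor, rose instead. It went from 6.63, 6.47 and 6.58 to 8.17, 7.92 and 7.86 in HCC827-Del and from 6.68, 6.58 and 6.58 to 7.85, 7.92 and 7.58 in HCC827-Del-TM, with an effect of 1.30 (SE 0.0848, adjusted p = 1.67e-07). In bulk RNA, fewer cells of a kind and less RNA per cell cannot be told apart.

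Genes of stratified epithelium rose more often than they fell. Of 32 tested, 13 rose and 3 fell in both lines (10.2% and 10.3% of all genes tested), with a median of 0.55. Only 11 of the 32 were detected on all 12 arrays. Of these 11, 4 rose and 2 fell in both lines. The keratins KRT10 (0.89, SE 0.0669) and KRT15 (0.73, SE 0.0609), of suprabasal and basal layers, and the cornified envelope gene SPRR1A (0.40) rose by similar size, and the envelope plakin PPL fell (-0.45). TGM2, a protein cross-linking enzyme, rose by 2.20 in HCC827-Del and 1.69 in HCC827-Del-TM. KRT4, a keratin of non-cornified stratified epithelium, fell by 4.38 in HCC827-Del (log2 fold change -4.38) and was undetected on the treated arrays of HCC827-Del-TM, at least 6.91-fold lower. Of 21 simple epithelial keratin and junction genes, 2 rose and 4 fell in both lines, and 3 were called in opposite directions (6.52% of all genes tested). CDH1, which encodes E-cadherin, rose by 0.36 (SE 0.0626) and CGN, the junction protein cingulin, by 0.36 (SE 0.0548), whereas GRHL2, an epithelial transcription factor, had -0.24, a call that was lost with median scaling (adjusted p = 0.0519).

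Several genes of fatty acid synthesis and a regulator of them fell by like amounts in both lines. SREBF1, the transcription factor that drives lipid synthesis, gave 8.99, 9.07 and 9.08 in HCC827-Del control cells and 8.06, 8.19 and 8.26 after treatment, and 8.79, 9.02 and 8.92 in HCC827-Del-TM control cells and 8.07, 8.04 and 8.01 after treatment. Its effect was -0.87 (SE 0.0616, adjusted p = 3.24e-07), with -0.82 and -0.22 for its other kept probes. SCD, the desaturase that makes oleic acid, went from 12.73, 12.62 and 12.75 to 11.68, 11.77 and 11.74 in HCC827-Del and from 11.88, 11.97 and 11.94 to 10.83, 11.01 and 10.88 in HCC827-Del-TM, an effect of -0.99 (SE 0.0572, adjusted p = 5.03e-08). ACACA, acetyl-CoA carboxylase, had -0.74 (SE 0.0539) and LSS, lanosterol synthase, -0.59. FASN, fatty acid synthase, fell in both lines too, by more in HCC827-Del-TM (-0.78 against -1.34). In the opposite direction, ELOVL6, a fatty acid elongase (0.54), and INSIG2, which retains the SREBP complex in the endoplasmic reticulum (0.53), rose by similar size. Of 29 sterol and fatty acid genes tested, 2 rose and 5 fell in both lines (10.2% and 10.3% of all genes tested). The median effect over both lines was -0.18.

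Autophagy and lysosome genes were mostly higher. Of 31 tested, 18 were higher and 3 lower over both lines (21% and 22.9% of all genes tested). In both lines 9 rose and 1 fell (10.2% and 10.3% of all genes tested), and 6 rose by similar size (5.12%). The median of the list was 0.328. A further 5 of the 31 were called in opposite directions, against 6.52% of all genes tested. GABARAPL1, an ATG8-family protein of the autophagosome membrane, went from 8.28, 8.20 and 8.22 to 9.52, 9.52 and 9.47 in HCC827-Del and from 8.89, 8.74 and 8.69 to 9.94, 9.90 and 9.82 in HCC827-Del-TM. Its effect was 1.19 (SE 0.0612, adjusted p = 1.7e-08), with no overlap between control and treated arrays. Its relative MAP1LC3B, which encodes LC3B, rose by 1.01 (SE 0.0728), and WIPI1, a phosphoinositide effector of autophagosome formation, by 0.95 (SE 0.105). The lysosomal genes SCARB2 (0.61), LAMP2 (0.56) and CTSD, cathepsin D (0.56), followed.

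**Figure D3:**
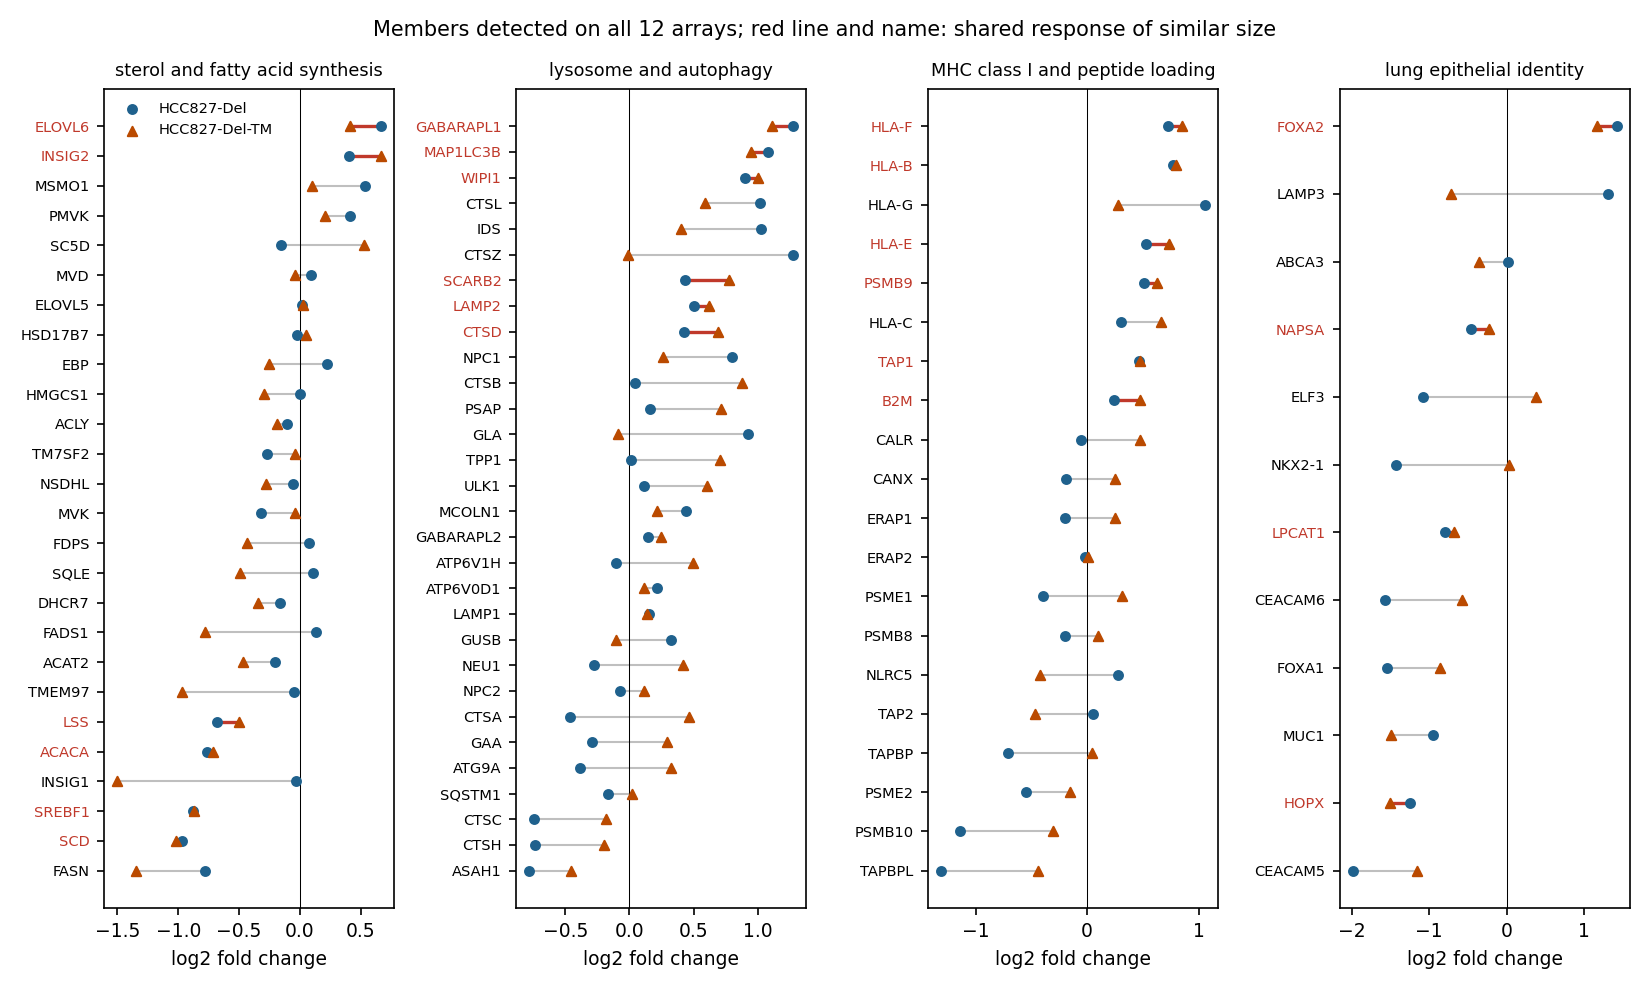
Log2 fold change of treated over control cells in HCC827-Del (circles) and HCC827-Del-TM (triangles) for members of 4 lists detected on all 12 arrays, ordered by the effect over both lines. Red marks members of similar size in both lines, such as SREBF1 and SCD among the genes that fell and GABARAPL1, HLA-B and FOXA2 among those that rose.

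Stress response genes were more often higher than lower. Of 31 genes of the integrated and endoplasmic reticulum stress responses, 8 rose and 1 fell in both lines, against 10.2% and 10.3% of all genes tested. By similar size 6 rose and 1 fell, and the median was 0.196. The difference between lines was called for 20 of the 31, against 42.6% of all genes tested. Opposite directions were called for 4, against 6.52%. ATF3, described above, led the rises of similar size, followed by EDEM1, which helps to degrade misfolded glycoproteins (0.78, SE 0.0785), and the co-chaperone DNAJB9 (0.51, SE 0.069). MANF (0.37), CEBPG (0.30) and the chaperone HSP90B1 (0.28) rose by less, and PHGDH, the entry enzyme of serine synthesis, fell (-0.30). DDIT3, which encodes CHOP, rose by 1.02 in HCC827-Del and 1.41 in HCC827-Del-TM. Among 17 heat shock and chaperone genes, HSPA1A (0.69, SE 0.0831) was the only member called in both lines in the same direction, and 3 were called in opposite directions.

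In the EGFR and MAPK list, 5 of 36 genes rose and 9 fell in both lines (10.2% and 10.3% of all genes tested). EGR1, an immediate early gene downstream of ERK, gave 10.12, 9.90 and 9.98 in HCC827-Del control cells and 8.87, 8.91 and 8.86 after treatment, and 10.10, 10.04 and 10.18 in HCC827-Del-TM control cells and 9.12, 9.08 and 9.14 after treatment. Its effect was -1.06 (SE 0.0604, adjusted p = 4.79e-08), and its levels were alike in the 2 lines. ERBB3, the receptor that pairs with EGFR and ERBB2, had -0.92 (SE 0.0793), with -0.44 for each of its other kept probes. EREG, an EGFR ligand (-0.40), CCND1, cyclin D1 (-0.34), and SPRED1, an inhibitor of Ras signalling (-0.27), also fell by similar size, and ERBB2 fell by unequal size (-0.88 against -0.36). JUN, another immediate early gene, rose by 0.92 (SE 0.0674) and the ligand TGFA by 1.24. The median of the list was 0.0426.

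Several heavy chain genes of major histocompatibility complex class I, which present peptides to T cells, rose alike in both lines. Of 20 class I and peptide loading genes tested, 7 rose and 2 fell in both lines (10.2% and 10.3% of all genes tested). All 6 members of similar size rose. HLA-B, a heavy chain gene, went from 10.53, 10.61 and 10.63 to 11.38, 11.19 and 11.52 in HCC827-Del and from 11.01, 10.98 and 10.90 to 11.79, 11.71 and 11.77 in HCC827-Del-TM, by 0.78 (SE 0.0645, adjusted p = 1.21e-06). HLA-F (0.79) and HLA-E (0.63), TAP1, which carries peptides into the endoplasmic reticulum (0.47), and B2M, the light chain (0.35), rose as well. PSMB9, an immunoproteasome subunit, rose by 0.57, while its other kept probe gave -0.05 (adjusted p = 0.721). The median of the list was 0.0282, close to that of all genes. Of 41 interferon-stimulated genes, 5 rose and 1 fell in both lines, a share of rises near the 10.2% of all genes tested, and 4 were called in opposite directions. OASL rose by 1.04 (SE 0.0994), with 0.13 (adjusted p = 0.275) for its other kept probe, and IFITM1 fell (-0.38). The tested OASL probe was detected on 2 of the 3 control arrays of HCC827-Del-TM. Of 10 class II genes 3 were called in opposite directions, against 6.52% of all genes tested. In both lines 2 of the 10 rose, but 0 of the 7 detected on all 12 arrays. The pair includes CD74, the invariant chain, which was undetected on the control arrays of HCC827-Del, where it was at least 1.82-fold higher after treatment, and rose by 1.30 in HCC827-Del-TM.

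Chemokine and other cytokine genes gave 10 rises and 1 fall in both lines among 21 tested, against 10.2% and 10.3% of all genes tested. Of these rises 5 were of similar size, and the median of the list was 0.676. Over the 15 members detected on all 12 arrays there were 8 rises and 1 fall, and the median was 0.403. CXCL5, a neutrophil chemokine, rose by 0.89 (SE 0.0747), from 6.00, 6.13 and 6.06 to 6.79, 6.83 and 6.77 in HCC827-Del and from 10.79, 10.78 and 10.55 to 11.69, 11.71 and 11.82 in HCC827-Del-TM. The lines thus differed far more from each other than treated from control cells did. IL23A (0.88), IL18 (0.43), TGFB2 (0.40) and CXCL16 (0.34) rose by similar size. The tested IL23A probe was detected on 1 of the 3 control arrays of HCC827-Del. For TGFB2 the arrays overlapped in HCC827-Del-TM, with 7.014, 6.755 and 6.476 in control and 7.047, 7.045 and 6.995 in treated cells. IL1A rose by 2.70 in HCC827-Del and 2.07 in HCC827-Del-TM, and CXCL8 by 2.22 and 0.97. Of 19 genes of NF-kB subunits and feedback, 2 rose and 2 fell in both lines, near the shares of all genes tested. Opposite directions were called for 3 of the 19, against 6.52% of all genes tested. SOD2, the mitochondrial superoxide dismutase, rose by 1.10 (SE 0.0867), and NFKB1, which encodes the p105 precursor, had -0.43 (SE 0.0633). Of 13 epithelial antimicrobial genes 6 rose in both lines, none by similar size, but of the 4 detected on all 12 arrays only 1 did.

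Proliferation genes fell in the test over both lines, but by more in HCC827-Del-TM and rarely by similar size. Of all genes tested, 22.9% were lower over both lines, and 10.3% fell and 10.2% rose in both lines. Of 41 mitotic genes tested, 36 were lower and 0 higher over both lines at an adjusted p under 0.05, yet 15 were lower in each line and 1 by similar size. The list's median log2 fold change was -0.166 in HCC827-Del and -1.12 in HCC827-Del-TM. The member of similar size was CDC25B, a phosphatase that activates cyclin-dependent kinases (-0.74, SE 0.0779). CCNA2, cyclin A2, gave -0.61 and -1.46, and KIF20A, a kinesin of cytokinesis, -0.77 and -1.69. The DNA replication list had a median of -0.0841 in HCC827-Del and -0.981 in HCC827-Del-TM. Opposite directions were called for 5 of its genes, against 6.52% of all genes tested. Of its 39 genes, 25 were lower over both lines, 7 in each line and 0 by similar size. Of 28 genes of ribosome biogenesis and MYC targets, 16, 6 and 1 were so, the last being CAD, the enzyme that starts pyrimidine synthesis (-0.97, SE 0.0953). MYC itself gave 0.51 and -0.10. Of 23 G1 inhibitors and p53 targets, 4 rose in both lines, among them GADD45A (0.46, SE 0.0686) and TP53I3 (0.45, SE 0.0772) by similar size.

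**Figure D4:**
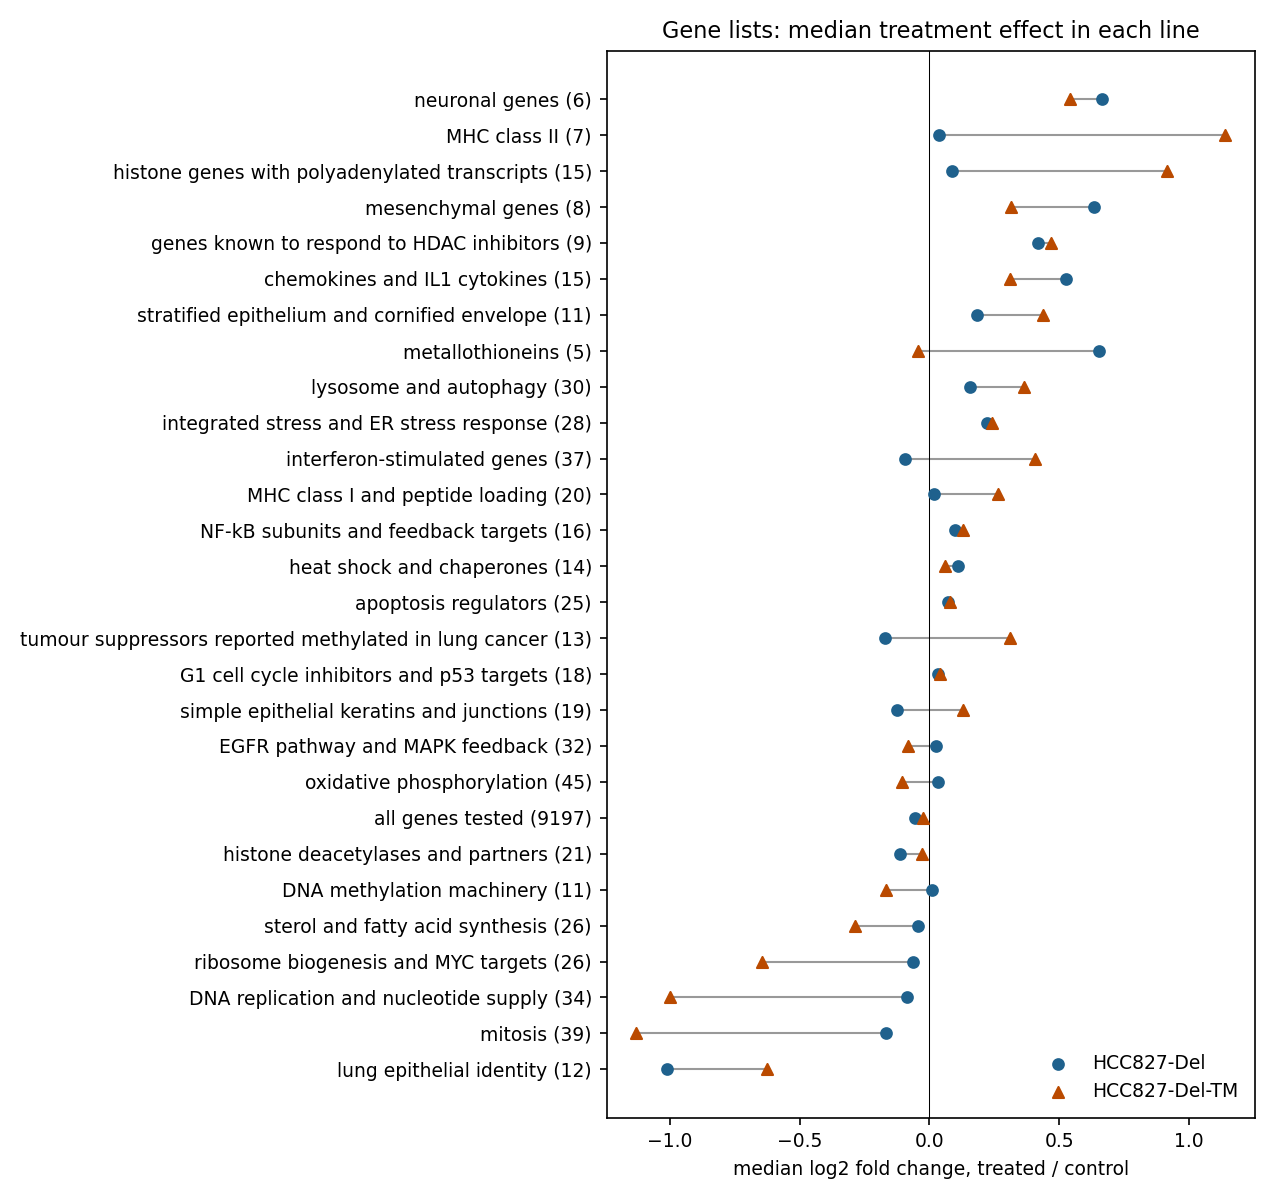
Median log2 fold change of treated over control cells in HCC827-Del (circles) and HCC827-Del-TM (triangles) for each list with at least 5 members detected on all 12 arrays, whose number is in brackets, beside all such genes. The medians of mitosis and of DNA replication lie far apart between lines, while those of the integrated stress response and of apoptosis regulators lie close together. Close medians do not show that members moved alike. The difference between lines was called for 20 of 31 stress genes tested and 14 of 30 apoptosis regulators, against 42.6% of all genes tested.

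Several lists held isolated members of similar size. Over all genes tested, 10.2% rose and 10.3% fell in both lines. BIK, a BH3-only inducer of apoptosis, rose from 7.96, 8.12 and 8.07 to 9.23, 8.98 and 9.22 in HCC827-Del and from 8.21, 8.18 and 8.17 to 9.30, 9.39 and 9.38 in HCC827-Del-TM, by 1.13 (SE 0.0631, adjusted p = 3.76e-08). PMAIP1, which encodes NOXA, rose by 0.60 (SE 0.0879), and of 30 apoptosis regulators 4 rose and 1 fell in both lines. Of 45 oxidative phosphorylation genes 5 fell and 0 rose in both lines, a share of falls near the 10.3% of all genes tested, and 4 were called in opposite directions. The 5 were all of similar size: NDUFS7 (-0.44), CYC1 (-0.38), NDUFS3 (-0.29), NDUFB5 (-0.28) and COX5A (-0.23). Of 24 genes in the list of histone deacetylases and partners, 1 rose and 3 fell in both lines. SAP30 had 0.30, and KAT2A, an acetyltransferase gene in that list, had -0.27. RBBP4, a histone chaperone, had -0.65 with its brightest probe, but its other kept probes gave 0.29 and 0.00 and its call was lost with the mean over probes (-0.12, adjusted p = 0.188). Of 12 genes known to respond to deacetylase inhibitors, 5 rose and 1 fell in both lines, and 3 were called in opposite directions (6.52% of all genes tested). By similar size, GLRX (0.38) and CRIP2 (0.39) were higher and the tubulin TUBB3 lower (-0.29). Of 8 metallothionein genes 2 rose in both lines, and MT1X rose by similar size (0.77, SE 0.0618). Of 19 histone genes with polyadenylated transcripts 6 rose in both lines (4 of the 15 detected on all 12 arrays), none by similar size, and H1-2 had 1.72 and 2.34.

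Most germline genes did not rise in both lines. Of 29 cancer-testis antigens tested, 27 were higher over both lines (21% of all genes tested) but 9 in each line (10.2% of all genes tested). Only PRAME was detected on all 12 arrays and of similar size (0.41, SE 0.0791). The others passed the filter through some of the arrays, which favours a difference. SPANXB1 rose in both lines, by 6.80 and 4.04. Both lines agreed on 2 rises and 1 fall among 18 genes of the germline and meiosis. They also agreed on 2 rises and 1 fall among 22 lung cancer tumour suppressors known for promoter methylation. In both lists the share of rises lay near the 10.2% of all genes tested. Of the 22 suppressors, 3 were called in opposite directions (6.52% of all genes tested). The 2 suppressors that rose were CADM1, an adhesion gene (0.40, SE 0.0706), and CDH1.

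Markers of other cell types were read beside these results. Of 31 mesenchymal genes with a probe, 13 were detected on no array, including ZEB1, PDGFRA and COL3A1, and of 36 neuronal genes 16, including SNAP25 and SYP. Mean signals in this paragraph are deposited signals, not log2 and neither background-corrected nor normalised, averaged over all members with a probe. On that scale the median over all probes of an array was 95.4 to 104. For mesenchymal genes the mean signals ran from 282 to 301 in HCC827-Del control cells and from 312 to 342 after treatment. In HCC827-Del-TM they ran from 333 to 378 and from 385 to 451. For neuronal genes the ranges were 155 to 168 and 226 to 241, then 161 to 167 and 169 to 189. Of 15 mesenchymal genes tested 6 rose and 1 fell in both lines, the latter being TWIST2 (-0.70, SE 0.0839), and of 13 neuronal genes 5 rose and 1 fell. The shares of all genes tested were 10.2% and 10.3%. Over members detected on all 12 arrays, 4 of 8 mesenchymal genes rose and 1 fell, and 3 of 6 neuronal genes rose and 1 fell. MAPT, which encodes tau, rose by 1.05 (SE 0.0683) and ENO2, an enolase, by 0.74 (SE 0.0685). The tested MAPT probe was detected on 1 of the 3 control arrays of HCC827-Del. Of 5 blood markers tested 3 rose and 1 fell in both lines, and of 5 endothelial and smooth muscle markers 1 rose. Blood markers had mean signals of 177 to 193 and 224 to 242 in HCC827-Del, and 185 to 197 and 218 to 242 in HCC827-Del-TM. Of their 18 members with a probe 10 were detected on no array, PTPRC and CD3E among them. Of 13 endothelial and smooth muscle markers 7 were detected on no array, among them CDH5, with mean signals of 93.3 to 99.7 and 113 to 116 in HCC827-Del and 89.9 to 93.9 and 92 to 94.4 in HCC827-Del-TM. What these signals contribute to the shared response was not tested.

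Genes that went in opposite directions mark what the shared response leaves out. STMN3, a microtubule-destabilising stathmin, gave 1.70 in HCC827-Del and -1.16 in HCC827-Del-TM, NFE2, an erythroid transcription factor gene, -1.39 and 1.14, and PPP1R14D, a phosphatase inhibitor gene, -1.41 and 0.99. Their effects over both lines were 0.27, -0.13 and -0.21, with adjusted p of 0.628, 0.804 and 0.656.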

How the data were processed

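RNA of 12 cultures (4 groups of 3 biological replicates per the series' design text) was profiled on 1-colour Illumina bead arrays. The authors deposited probe signal intensities, which per the values are neither background-subtracted nor normalised, and a detection p-value beside each, from control probes not used here. The deposited log2 values of the authors are quantile-normalised. The sources used here do not name the software. The intensities were corrected with limma's nec (noise inferred from detection p, offset 16), quantile-normalised and set to log2 (limma 3.58.1, statmod 1.5.0, R 4.3.3), and each array then had r = 0.981 with the values of the authors.

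Of 47323 probes, 30113 had 1 gene symbol in the platform annotation, 8 had several and 17202 had none, and only those with 1 symbol were used. A probe was kept at a detection p under 0.01 on at least 3 of 12 arrays, and the brightest kept probe of each of 11808 genes entered the fit. Of 3087 genes with more than 1 kept probe, 24 had probes called in both directions. Treatment over both lines came from an additive model (line and treatment), effects per line and their difference from a model with 1 coefficient per group, both with lmFit and eBayes, two-sided, Benjamini-Hochberg adjusted over all genes, threshold 0.05. Differences between lines count as residual spread in the additive model. The model was tested on simulated data.

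The members and the 32 lists (939 symbols, 882 with a probe, 707 tested) were chosen with earlier results of these data known. Named are the 10 highest and 10 lowest effects of similar size among genes detected on all 12 arrays, up to 5 genes per direction undetected under 1 condition, up to 3 members of similar size per list, genes tied to the design, and 3 opposite genes. Named after their values were seen were FASN, SPDEF, FOXA1, MUC1, KRT4, TGM2, TGFA, ERBB2, CCNA2, KIF20A, SPANXB1, MT1E, MYC, TAP1, B2M, PSMB9, IL1A, CXCL8, DDIT3, H1-2 and CD74, and list members that complete a count. Same-numbered samples of different groups correlated in their deviations from the group mean at r = -0.0317 to 0.0522, so replicate numbers were not taken as pairs. Alternatives were other normalisations, background and detection settings, the authors' values, the mean over probes, other models, thresholds and limits, and leaving out each array.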

Additional observations from a re-analysis of the deposited data

Results flagged for a closer look

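Named genes whose treatment effect differed between the lines (limma's test of the difference, adjusted p under 0.05, a call made for 42.6% of all genes tested) are given with the effect in HCC827-Del-TM minus that in HCC827-Del, on the log2 scale. Within the limit of similar size, the difference was still called for SERPINA1 (-0.369), HMGB2 (-0.355), SCARB2 (0.347), ANGPTL4 (0.327), CXCL5 (0.3), ENO2 (-0.285) and CCDC102A (0.284). Opposite directions were called for STMN3 (-2.86), NFE2 (2.53), PPP1R14D (2.41) and UHRF1 (-2.1). A single line was called for MT1E (-3.02), DNMT1 (-0.817), DNMT3B (-0.644) and MYC (-0.612). Among genes called higher in both lines, the differences were SPANXB1 (-2.76), CXCL8 (-1.26), TGFA (0.668), IL1A (-0.631), H1-2 (0.622), CDKN1A (-0.526), TGM2 (-0.512) and DDIT3 (0.388). Among genes called lower in both lines they were SPDEF (-0.988), KIF20A (-0.914), CCNA2 (-0.853), FOXA1 (0.679), FASN (-0.567), MUC1 (-0.549) and ERBB2 (0.514), where a positive value is a smaller fall in HCC827-Del-TM. Fitted differences of genes undetected on all arrays of at least 1 group rest on background there and are no bounds. They were CEBPA (-0.907), KRT4 (0.926), SPANXD (-3.64), SPANXA1 (-3.12), SBSN (-2.54), SFTPB (-1.66), SFTPA1 (1.21) and UBA7 (0.786). Groups of 3 were too small for the test of single outlying arrays.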

How the results depend on the processing

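Median scaling of the arrays gave 813 genes of similar size in place of 1372 (410 lower in place of 768, and 403 higher in place of 604) and 460 opposite genes in place of 770; the cause was not tested. An adjusted p under 0.01 left 3369 genes called over both lines (1645 higher, 1724 lower), 375 opposite and 895 of similar size (464 lower), and a narrower limit on the difference between lines left 313 of similar size (139 higher, 174 lower), as stricter rules must. Every other count under the alternatives stayed within 1.5 times its value. Leaving out each array gave 4531 to 4944 genes called over both lines and 1158 to 1244 of similar size. With the replicate number as a block, 4719 genes were called over both lines, 2407 in both lines in the same direction and 1327 were of similar size, and 5 of 12 arrays correlated best with their own number.

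The 20 genes with the highest and lowest effects stayed called in both lines in the same direction under every alternative that was run, but similar size did not always hold for them. By median scaling 12 of the 20 kept it, by cyclic loess 17, by the authors' values 16, with the replicate block 18 and with the narrower limit 0. Of the 1372 genes, 51.3% kept it by median scaling and 79.8% to 84.2% without single arrays. Of 132 named genes with values, 123 kept the same call in all 25 settings. The exceptions were HDAC1, GRHL2, RBBP4, DNMT1 and MT1E, each no longer called in at least 1 setting, and MYC, UHRF1, STMN3 and PPP1R14D, called in 1 or more settings. No called value changed sign. Signal over background limits genes undetected on all arrays of at least 1 group, for which similar size was not judged (309 of the 2431 genes called in both lines). Genes detected on only some arrays of a group were judged.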
